A study of Homo sapiens with 8 samples.

Results

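The genes described here encode cytokine receptor subunits that bind none of the 3 cytokines added to the cells. They were taken by name: IL6R, IL6ST and LIFR from the IL-6 family, IFNAR1 and IFNAR2 of the type I interferon receptor, IL10RB and IL22RA1 from the IL-10 receptor family, and IL13RA1, IL15RA and IL17RA. Of these 10 genes, 9 are among the 16525 genes of the expression table, and LIFR had no row in it and is not analysed here. The study exposed EndoC-βH5 cells, a human beta-cell line, to cytokines and asked how their transcriptome responds. The line derives from fetal pancreatic tissue that was immortalised with transgenes, which were later removed, and it is a single line, so the libraries say nothing of differences between donors. The control group held 4 libraries of untreated cells, and the cytokine group held 4 libraries of cells exposed for 48 h to a mixture of IL-1β, IFNγ and TNFα, at 50, 1000 and 1000 U/mL in that order. Nothing in the labels says that the libraries of a group came from separate cultures, so the p-values measure the spread between these samples, which may be technical. Column names tie every control library to a cytokine library by their leading characters, and these pairs are called A to D. The names of A and B hold the number 21 and those of C and D the number 22, and what these numbers stand for is not given in the sources used here.

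Most cytokine receptors are assemblies of a subunit that binds the ligand and a subunit that signals, and the signalling subunit is often shared by several ligands. The IL-6 receptor joins the ligand-binding IL6R to the shared transducer IL6ST, known as gp130, which LIFR also pairs with to bind leukemia inhibitory factor. The type I interferon receptor pairs IFNAR1 with IFNAR2, and IL10RB is a common second chain of the receptors for IL-10, IL-22 and the type III interferons, with IL22RA1 as the partner specific to IL-22. IL13RA1 joins IL4R to bind IL-13 and IL-4, IL17RA is shared by most IL-17 family receptors, and IL15RA captures IL-15 and presents it to neighbouring cells. Apart from IL17RA, these receptors signal mainly through Janus kinases (JAKs) and STAT transcription factors.

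Values are CPM, the reads of a gene divided by the library total and scaled to a common total, and the library totals were 46767972 to 51145634 reads in control and 46821778 to 49770531 in cytokine libraries. All values were whole multiples of 1 read, which was worth 0.0196 to 0.0214 CPM. Beta-cell identity was checked on 10 markers, all of which were listed, and 6 of them were called lower in the cytokine libraries, among them MAFA and G6PC2. IAPP of the same list was at 4102 ± 1844 and 7787 ± 3443 CPM (SD, n = 4), higher in 4 of 4 pairs, and was not called (log2 fold change 0.93, adjusted p = 0.0765, limma). It was called with the pairs as a replicate block (adjusted p = 3.52e-09, limma) and in edgeR with TMM (adjusted p = 0.0332). The insulin gene INS was at 2169 ± 744 CPM (SD, n = 4) in control and 1846 ± 322 CPM (SD, n = 4) in cytokine libraries. Of 8 markers of other islet cells all were listed, with a summed level of 514 to 2244 CPM in control and 625 to 2080 CPM in cytokine libraries, and IRX2 was called higher. The median log2 fold change of these 8 was -0.26, and GCG, the glucagon gene, was at 93.3 ± 94.0 and 34.5 ± 34.7 CPM (SD, n = 4), lower in 4 of 4 pairs, and was not called (log2 fold change -1.47, adjusted p = 0.237, limma) but was called with the replicate block (adjusted p = 3.89e-05, limma). Markers of exocrine and duct cells had rows for 2 of 8 genes (summed 88.2 to 167 CPM in control and 84.6 to 166 CPM in cytokine libraries, with CPA1 called lower), those of fibroblasts and endothelium for 2 of 9 (3.56 to 5.30 and 4.29 to 6.41 CPM), and those of leukocytes for 1 of 11, CD14 (1.07 to 3.26 and 1.24 to 1.95 CPM). The part of these cells in the receptor values was not tested, and in bulk RNA a change in the number of expressing cells and a change in the RNA per cell cannot be told apart.

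Of the 9 listed subunits, 5 were called higher in cytokine-exposed cells and 0 were called lower (limma, Benjamini-Hochberg adjustment over all listed genes, absolute log2 fold change above 0.5 and FDR below 0.05). No subunit had a negative change at an unadjusted p below 0.05 either, and edgeR and DESeq2 on the recovered reads also called 0 lower. The subunits called higher were IL15RA, IL6R, IL6ST, IFNAR2 and IL22RA1, and those not called were IL10RB, IL13RA1, IFNAR1 and IL17RA. Over all 16525 genes, 9.52% were called higher and 17.5% lower, 27.0% in all. The median log2 fold change was 0.73 over the 9 subunits and -0.17 over all genes. With the libraries rescaled by TMM, which brings the median of all genes to -0.02, the split was 13.0% higher and 11.7% lower, and the same 5 subunits were called. In 4 of the 9 subunits the ranges of both groups were apart, against 32.8% of all genes, and in each of the 4 the cytokine libraries were the higher ones, against 10.8%. Per the methods, genes were kept that exceeded 0.5 CPM in at least 4 samples, but 371 of the listed genes do so in fewer than 4 of the 8 libraries used here, and the table has 4 further columns that were not used. IL15RA was above 0.5 CPM in 2 of the 4 control libraries and in all 4 cytokine libraries, so the control libraries alone would not have listed it, while the other 8 subunits were above that limit in all 8 libraries.

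**Figure D1:**
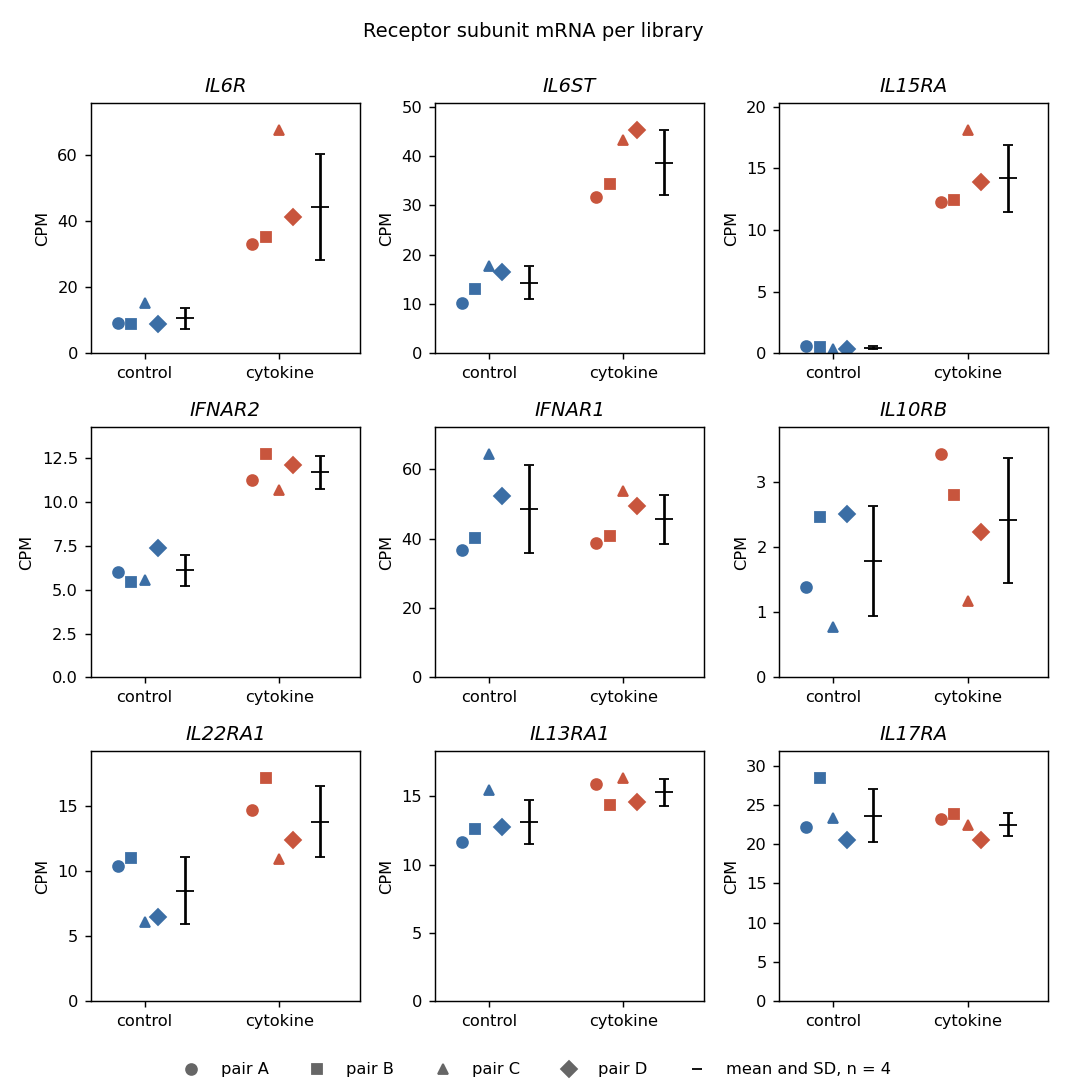
CPM (vertical axes, each starting at 0) of the 9 receptor subunits in the 4 control and 4 cytokine libraries, with 1 point per library, 1 marker shape per pair, and the mean with its SD (n = 4) beside them. The groups are apart for IL6R, IL6ST, IL15RA and IFNAR2, touch for IL22RA1 (control B at 11.0 and cytokine C at 11.0 CPM), and lie over each other for IFNAR1, IL10RB, IL13RA1 and IL17RA.

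Sequences upstream of the start sites were read from RefSeq (GRCh38.p14), since 5 subunits rose together, and searched for motifs of transcription factors downstream of the added cytokines. Both strands of the 250 bases before each start were read for the STAT site GAS (TTCNNNGAA), the interferon response element ISRE (GAAA, any 2 bases, GAAA) and the NF-κB site (GGG, any 2 bases, TTTCC), none of which overlapped another in these windows. Windows were found for 8 of the 10 genes, 14 windows in all. IFNAR2 and IL17RA had none, so the search does not cover IFNAR2, 1 of the 5 subunits that rose. The GAS letters were in 3 of them, 1 of the 4 windows of IL15RA and 2 of the 3 of LIFR, against 6.56% of 34943 windows of all genes. The ISRE letters were in 0 of the 14 windows (3.02% of all windows) and the NF-κB letters in 0 (1.73%). A match is a description of the letters and no evidence of binding, and a lack of one says only that these letters are not in the window. The sequences shown are those of the subunits with the largest changes, and capitals mark the GAS letters. For IL15RA, the 30 bases around the match (chr10:5978154-5978183, minus strand), inside an annotated exon, and the adjoining bases outside exons (chr10:5978188-5978296, minus strand) are given; for IL6R (chr1:154405093-154405192, plus strand) and IL6ST (chr5:55994994-55995166, minus strand), the bases of the window outside annotated exons.
IL15RA, GAS match: gcagcaggaaTTCGGCGAAgtggcggagct
IL15RA, upstream: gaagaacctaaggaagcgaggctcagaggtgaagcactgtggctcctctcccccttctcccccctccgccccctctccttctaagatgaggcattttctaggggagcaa
IL6R, upstream: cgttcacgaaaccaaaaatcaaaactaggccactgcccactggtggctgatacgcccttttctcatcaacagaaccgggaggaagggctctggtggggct
IL6ST, upstream: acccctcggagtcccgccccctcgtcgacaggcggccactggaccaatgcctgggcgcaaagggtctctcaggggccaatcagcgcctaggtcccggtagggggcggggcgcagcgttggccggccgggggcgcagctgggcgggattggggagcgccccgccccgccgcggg

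Both listed subunits of the IL-6 receptor were upregulated. IL6R (ENSG00000160712, chromosome 1, 154405193 to 154469450, plus strand, GRCh38), which binds IL-6, was at 9.28, 8.87, 15.2 and 8.82 CPM in control libraries A to D and at 33.2, 35.2, 67.7 and 41.1 CPM in cytokine libraries A to D. Every cytokine library was above every control library, and library C was the highest of its group in both conditions. The mean rose from 10.6 ± 3.14 to 44.3 ± 16.0 CPM (SD, n = 4), by 2.04 ± 0.25 (SE) on the log2 scale (limma, adjusted p = 0.000141). Among all listed genes IL6R moved from rank 9121 to rank 3689 by mean CPM.

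IL6ST (ENSG00000134352, chromosome 5, 55935095 to 55994993, minus strand), the signalling chain of the whole IL-6 family, was at 10.2, 12.9, 17.6 and 16.6 CPM in control libraries A to D. In cytokine libraries it was at 31.8, 34.3, 43.2 and 45.3 CPM, again with no overlap between the groups. Libraries C and D were above A and B in both conditions. The mean rose from 14.3 ± 3.40 to 38.6 ± 6.61 CPM (SD, n = 4), by 1.44 ± 0.19 (SE) on the log2 scale (limma, adjusted p = 0.000275). The rise was seen in every pair, by 1.29 to 1.63 on the log2 scale, and IL6R rose by 1.83 to 2.21.

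IL15RA had the largest change of the 9 subunits, and ranked 90 of 16525 genes by log2 fold change. IL15RA (ENSG00000134470, chromosome 10, 5943639 to 5978187, minus strand) was at 0.620, 0.508, 0.378 and 0.352 CPM in control libraries A to D, which were 18 to 29 reads each. In cytokine libraries it was at 12.3, 12.5, 18.1 and 13.9 CPM, or 577 to 901 reads. The lowest cytokine library was thus far above the highest control library, and the ratio of the group means (0.465 ± 0.124 and 14.2 ± 2.72 CPM, SD, n = 4) was 30.6-fold. On the log2 scale the change was 4.67 ± 0.22 (SE, limma, adjusted p = 9.85e-08), and 5.07 with edgeR's quasi-likelihood test on the recovered reads. The rise was 4.24 in the pairs numbered 21 and 5.10 in those numbered 22. The difference of 0.87 had an unadjusted p of 0.0333 (limma interaction term), which 2.95% of all genes passed at 0.05, and an adjusted p of 0.999. In that test 0 of the 9 subunits passed an FDR of 0.05, against 0.0303% of all genes, and 8 had an unadjusted p above 0.05.

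Of the 2 chains of the type I interferon receptor, IFNAR2 was called and IFNAR1 was not. IFNAR2 (ENSG00000159110, chromosome 21, 33229901 to 33265675, plus strand), the chain with the higher affinity for interferon, was at 6.03, 5.44, 5.57 and 7.39 CPM in control libraries A to D and at 11.3, 12.8, 10.7 and 12.1 CPM in cytokine libraries. The groups did not overlap, and the mean rose from 6.11 ± 0.891 to 11.7 ± 0.926 CPM (SD, n = 4), by 0.93 ± 0.15 (SE) on the log2 scale (limma, adjusted p = 0.00101). IFNAR1 (ENSG00000142166, chromosome 21, 33324477 to 33359862, plus strand) was at 36.7, 40.2, 64.5 and 52.4 CPM in control libraries A to D and at 38.9, 40.7, 53.8 and 49.3 CPM in cytokine libraries. These groups overlapped, with libraries C and D above A and B in both. Its log2 fold change was -0.06 (95% interval -0.47 to 0.35, adjusted p = 0.834, limma), and it was 0.09 with TMM scaling, so no direction can be given.

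Ratios of subunits within a library, per exon length, do not depend on the scaling of libraries. They were chosen after the values had been seen and computed for 4 receptors. The ratio of IFNAR2 to IFNAR1 was 0.225, 0.185, 0.118 and 0.193 in control libraries A to D and 0.396, 0.429, 0.271 and 0.335 in cytokine libraries. The mean ratio was 0.1800 ± 0.0448 and 0.358 ± 0.0696 (SD, n = 4), a difference of 1.01 on the log2 scale, with p = 0.0286 in a 2-sided exact permutation test, the smallest p that 4 against 4 libraries allow, and 0.114 after adjustment over the 4 ratios. The ratio was higher in 4 of 4 pairs, and every cytokine library was above every control library.

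The counting of IFNAR2 has limits from its neighbours. In GENCODE 29, 44.2% of its exon bases are shared on the same strand with AP000295.1, a readthrough transcript into IL10RB that had no row in the table, and so are 38.1% of those of IL10RB. Of the 4614 exon bases of IFNAR2, 1803 lie opposite to IL10RB-DT, and whether some of these are also shared with AP000295.1 was not computed. IL10RB-DT, a listed non-coding gene, fell from 0.747 ± 0.0687 to 0.248 ± 0.0969 CPM (SD, n = 4), with a log2 ratio of -1.32 ± 0.29 (SE, limma, adjusted p = 0.00591). The library kit kept the strand, but neither the strand setting of the counting nor the treatment of reads shared with AP000295.1 could be checked on the CPM values. How far this moves the values of IFNAR2 and IL10RB was not tested.

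**Figure D2:**
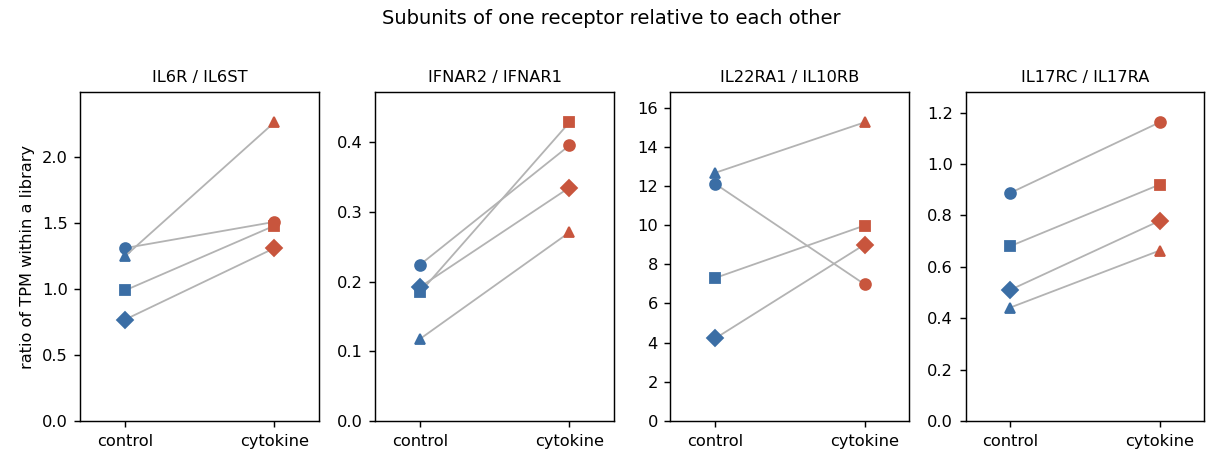
Ratio of TPM (reads per exon length, scaled to a common sum) of the subunits of 1 receptor within each library, control on the left and cytokine on the right of each panel, with lines joining the libraries of a pair and marker shapes for the pairs as in the plot of CPM per library. The ratio of IFNAR2 to IFNAR1 is at most 0.225 in control and at least 0.271 in cytokine libraries, and the other ratios overlap between the groups.

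The same ratio for IL6R to IL6ST was 1.08 ± 0.249 in control and 1.64 ± 0.424 (SD, n = 4) in cytokine libraries. It was higher in 4 of 4 pairs, but the groups touched at 1.31, and p was 0.0571 in the 2-sided exact permutation test (0.114 adjusted over the 4 ratios). The ratios were 1.31, 0.987, 1.25 and 0.767 in control libraries A to D and 1.51, 1.48, 2.26 and 1.31 in cytokine libraries, and the test did not use the pairs.

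In the IL-10 receptor family the IL-22-binding chain was called and the shared chain was not. IL22RA1 (ENSG00000142677, chromosome 1, 24119771 to 24143121, minus strand) was at 10.3, 11.0, 6.05 and 6.49 CPM in control libraries A to D and at 14.7, 17.2, 11.0 and 12.4 CPM in cytokine libraries. Libraries A and B were above C and D in both conditions, and control B slightly exceeded cytokine C. The mean rose from 8.48 ± 2.57 to 13.8 ± 2.73 CPM (SD, n = 4), by 0.73 ± 0.23 (SE) on the log2 scale (limma, adjusted p = 0.0337). Taken by pair, IL22RA1 was higher with cytokines in 4 of 4 pairs, by 0.50, 0.63, 0.85 and 0.92. The call was lost without control C (adjusted p = 0.0782), control D (0.0926), cytokine A (0.0816), cytokine B (0.0936) or cytokine D (0.0532, limma), with log2 fold changes of 0.58 to 0.77, and it held when the pairs were a replicate block (adjusted p = 5.31e-05, limma).

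IL10RB (ENSG00000243646, chromosome 21, 33266358 to 33310187, plus strand) was at 1.39, 2.46, 0.776 and 2.50 CPM in control libraries A to D and at 3.43, 2.80, 1.17 and 2.23 CPM in cytokine libraries. The groups overlapped over most of their range, and the pair differences were 1.24, 0.18, 0.53 and -0.16. The log2 fold change was 0.45 (95% interval -0.45 to 1.35, adjusted p = 0.440, limma), an interval that includes 0 and the value of IFNAR2. IL10RB was called higher only in the 2 fits that joined the replicate block with TMM scaling (0.59, adjusted p = 0.0338, limma, and 0.61, adjusted p = 0.0447, edgeR), in which 15.8% of all genes were called higher. With the block alone it was not called (adjusted p = 0.0992, limma). The ratio of IL22RA1 to IL10RB was 9.07 ± 4.04 in control and 10.3 ± 3.53 (SD, n = 4) in cytokine libraries (p = 0.657, 2-sided exact permutation test, and 0.657 adjusted).

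IL13RA1 and IL17RA were not called. IL13RA1 (ENSG00000131724, chromosome X, 118727572 to 118794539, plus strand) was at 11.6, 12.6, 15.4 and 12.8 CPM in control libraries A to D and at 15.9, 14.3, 16.4 and 14.6 CPM in cytokine libraries. It was higher with cytokines in 4 of 4 pairs, by 0.08 to 0.45, but the groups overlapped. Its log2 fold change was 0.23 (95% interval -0.07 to 0.52, adjusted p = 0.229, limma). TMM scaling gave 0.38 (limma, adjusted p = 0.0276), under the fold limit of 0.5.

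IL17RA (ENSG00000177663, chromosome 22, 17084954 to 17115694, plus strand), whose signal runs through the adaptor TRAF3IP2, was at 22.2, 28.5, 23.3 and 20.5 CPM in control libraries A to D. In cytokine libraries it was at 23.1, 23.9, 22.5 and 20.5 CPM, with D at the lower end of both groups and the others within the control range. The log2 fold change was -0.06 (95% interval -0.35 to 0.23, adjusted p = 0.757, limma) and turned to 0.09 with TMM scaling. Of the 4 subunits not called, IL17RA had the narrowest interval. Its partner IL17RC was at 7.52 ± 2.66 and 10.02 ± 2.81 CPM (SD, n = 4), higher in 4 of 4 pairs. IL17RC was not called (log2 fold change 0.44, adjusted p = 0.256, limma). With the replicate block it passed the FDR (adjusted p = 0.00471, limma) but not the fold limit. TMM scaling gave 0.59 (adjusted p = 0.188, limma). The ratio of IL17RC to IL17RA was 0.630 ± 0.199 and 0.881 ± 0.215 (p = 0.143, 2-sided exact permutation test, and 0.190 adjusted). This ratio was also higher in 4 of 4 pairs, which the test did not use.

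**Figure D3:**
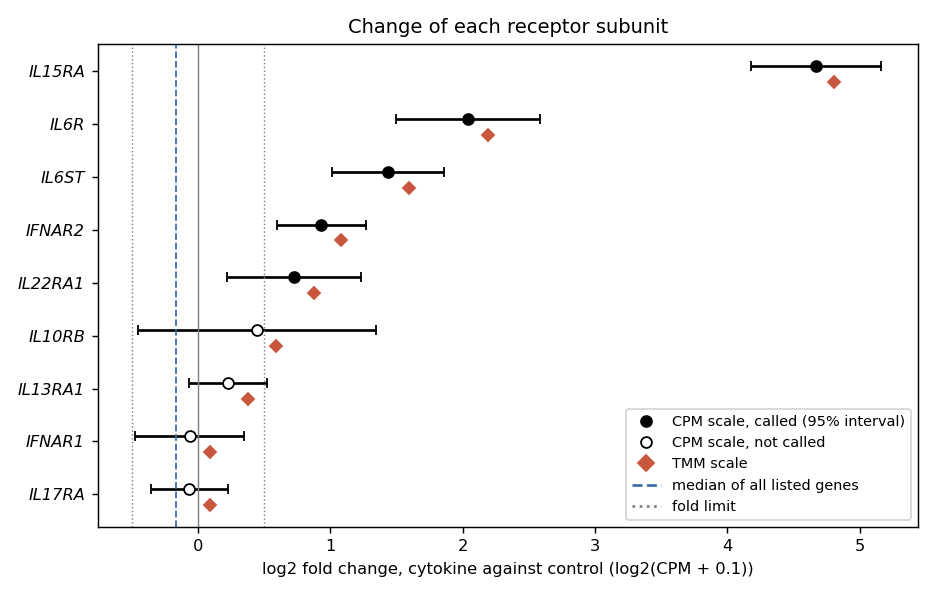
Log2 fold change of each receptor subunit, cytokine against control, on log2(CPM + 0.1), with the 95% interval (limma, 4 against 4 libraries, circles filled where called) and the value with TMM scaling (diamonds). The blue dashed line is the median of all listed genes at -0.17 and the dotted lines are the fold limit of 0.5. The values run from -0.06 for IL17RA to 4.67 for IL15RA, and TMM scaling moves IFNAR1 and IL17RA from just below to just above 0.

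Levels of different genes were set side by side only per exon length, as TPM computed from the recovered reads. In control libraries IFNAR1 had the highest level at 30.2 ± 11.6 TPM (SD, n = 4), and every control library was above the libraries of the next subunit. IL13RA1 (11.6 TPM), IL22RA1 (11.3), IL17RA (9.94), IL6R (6.37), IL6ST (6.05) and IFNAR2 (5.12) followed, and each overlapped the next in that order. IL10RB (1.49 ± 0.761 TPM) and then IL15RA (0.478 ± 0.0684 TPM) came last, each below the one before it without overlap.

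In cytokine libraries the order was different. IFNAR1 (30.5 ± 8.01 TPM) and IL6R (29.1 ± 12.8 TPM, SD, n = 4) overlapped at the top, and IL22RA1 (20.2 TPM), IL6ST (17.5), IL15RA (16.4), IL13RA1 (14.5), IFNAR2 (10.5) and IL17RA (10.3) followed, each overlapping its neighbour. IL15RA thus moved from the lowest of the 9 to the fifth place. IL10RB (2.14 ± 0.702 TPM) was the lowest and did not overlap IL17RA.

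**Figure D4:**
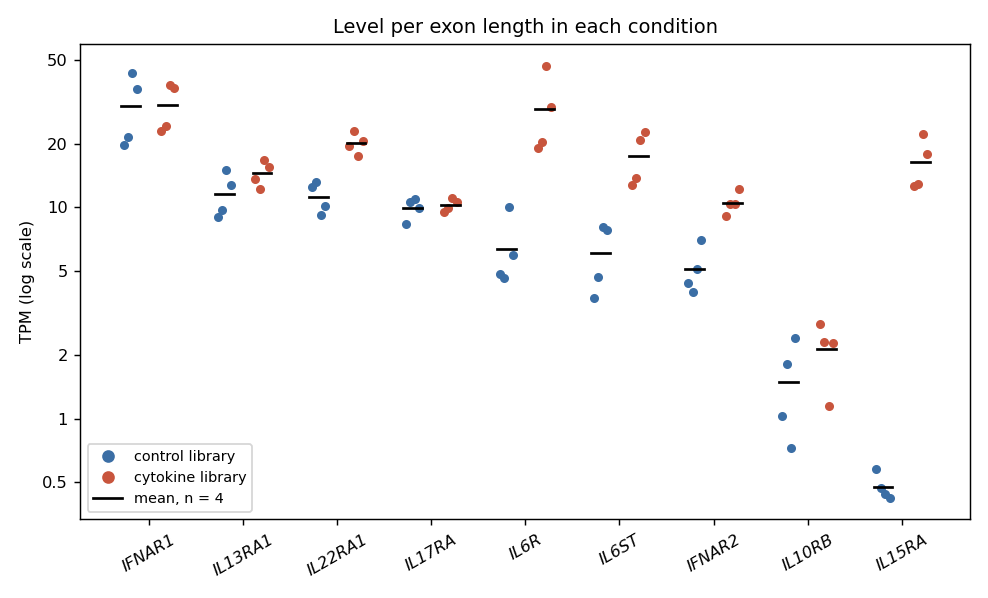
Level per exon length (TPM, log scale) of the 9 receptor subunits in each control and cytokine library, in the order of the control means (bars, n = 4). IFNAR1 stays near 30 TPM in both conditions (30.2 and 30.5), while IL15RA moves from 0.478 to 16.4 and IL6R from 6.37 to 29.1.

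The genes around these receptors were counted in lists drawn up by role. Each count stands beside all listed genes, of which 9.52% were called higher and 17.5% lower, with a median log2 fold change of -0.17. Of 35 partner and related receptor subunits 20 were listed, and 2 were called higher and 8 lower. Their median log2 fold change was -0.08, above that of all genes. The 2 that rose were the chains of the IL-12 receptor, IL12RB1 (0.0556 ± 0.0446 to 0.750 ± 0.120 CPM, SD, n = 4) and IL12RB2 (0.136 ± 0.115 to 1.02 ± 0.0519 CPM), both at few reads in control libraries. The largest falls were IL27RA, which pairs with IL6ST to bind IL-27 (10.1 ± 2.56 to 4.11 ± 1.57 CPM, log2 fold change -1.32, adjusted p = 0.00509, limma), and IL17RE, a partner of IL17RA (2.64 ± 0.342 to 1.06 ± 0.143 CPM, -1.24, adjusted p = 0.00120, limma). IFNLR1, which pairs with IL10RB to bind the type III interferons and lies beside IL22RA1 on chromosome 1, was at 11.5 ± 2.31 and 11.2 ± 0.928 CPM and was not called. Among the named subunits without a row were IL4R, the partner of IL13RA1, and IL2RB and IL2RG.

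Receptors of the 3 added cytokines were counted for comparison. Of 7 named, 5 were listed, 1 was called higher and the other 4 were not called. The called one, the TNF receptor TNFRSF1B, was listed at 0 in all 4 control libraries and at 0.496 ± 0.210 CPM (SD, n = 4) in cytokine libraries, where 2 of 4 were above 0.5 CPM. The IFNγ receptor chains were not called. IFNGR2, next to IFNAR1 on chromosome 21, was at 61.5 ± 11.4 and 59.0 ± 12.2 CPM. IFNGR1 was at 28.2 ± 2.52 and 33.6 ± 0.718 CPM (log2 fold change 0.25, adjusted p = 0.105, limma), higher in 4 of 4 pairs. It passed the FDR with TMM scaling (0.41, adjusted p = 0.0104, limma) and with the replicate block (adjusted p = 0.0141, limma). Neither fit reached the fold limit. IL1RAP, of the IL-1 receptor, was not called (log2 fold change 0.35, adjusted p = 0.0987, limma), though higher in 4 of 4 pairs. TMM scaling called it (0.505, adjusted p = 0.0399, limma), and so did edgeR with TMM (0.508, adjusted p = 0.0405).

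Of 31 genes for ligands of the 10 receptors, 3 were listed and 2 were called higher. Both of these were above 0.5 CPM in all 4 cytokine libraries, but LIF in 0 and IL15 in 2 of the 4 control libraries, so the control libraries alone would not have listed them and the count is no support for a direction. IL15, the ligand of IL15RA, was at 0.620, 0.444, 0.378 and 0.821 CPM in control libraries A to D and at 5.79, 6.88, 7.07 and 9.93 CPM in cytokine libraries (log2 fold change 3.52, SE 0.26, adjusted p = 3.78e-06, limma). Its groups did not overlap, and IL15 and IL15RA were thus both higher in all 4 pairs. LIF, the ligand of LIFR and IL6ST, rose from 0.162 ± 0.115 to 1.33 ± 0.370 CPM (log2 fold change 2.52, adjusted p = 0.000619, limma). IL11, which signals through IL6ST, was at 1.48 ± 0.490 and 4.71 ± 3.92 CPM (SD, n = 4), higher in 3 of 4 pairs, and was not called (log2 fold change 1.32, adjusted p = 0.0631, limma). It was called with the replicate block (adjusted p = 0.00461, limma), with TMM scaling (0.0456, limma) and in edgeR with TMM (0.0262). IL6 itself had no row in the table.

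Downstream of the receptors, 8 of 20 listed kinases, STATs and adaptors were called higher and 1 lower, with a median of 0.26. JAK2, a kinase of the IFNγ receptor, rose from 5.46 ± 0.847 to 73.1 ± 11.0 CPM (SD, n = 4, log2 fold change 3.72, adjusted p = 3.11e-08, limma). JAK3 fell from 13.5 ± 1.77 to 8.49 ± 2.31 CPM (-0.70, adjusted p = 0.0314, limma), a call that was lost with TMM scaling (-0.55, adjusted p = 0.0968, limma) and in edgeR with TMM (-0.51, adjusted p = 0.110). TYK2, the kinase bound by IFNAR1 and IL10RB, was at 116 ± 12.5 and 86.0 ± 6.46 CPM. It passed the FDR (adjusted p = 0.0181, limma) but not the fold limit at -0.43. The FDR was missed with TMM scaling (-0.28, adjusted p = 0.171, limma) and in edgeR with TMM (-0.29, adjusted p = 0.159). With the replicate block it was passed (adjusted p = 3.51e-05, limma). The adaptor GRB2 was not called (115 ± 18.7 CPM in control libraries, log2 fold change -0.11, adjusted p = 0.614, limma).

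Of 16 negative regulators all were listed, and 4 were called higher and 2 lower, with a median of 0.17. SOCS1, an inhibitor of JAKs, rose from 1.17 ± 0.352 to 61.7 ± 11.5 CPM (SD, n = 4, log2 fold change 5.62, adjusted p = 1.74e-08, limma). SOCS3, which binds IL6ST and blocks its signal, had at most 2 reads in each control library and 2.43, 1.45, 5.46 and 2.71 CPM in cytokine libraries A to D, all of them above the control libraries (adjusted p = 7.75e-06, limma), and no fold change is given against so few reads. SOCS2 fell from 10.4 ± 2.68 to 0.964 ± 0.219 CPM (-3.29, adjusted p = 3.24e-06, limma) and CISH from 10.5 ± 0.938 to 6.53 ± 0.751 CPM (-0.68, adjusted p = 0.00558, limma). The phosphatase PTPN1 (72.3 ± 5.39 and 83.1 ± 6.15 CPM) and PIAS1 (65.2 ± 8.67 and 74.5 ± 14.6 CPM) were not called.

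All 15 genes for the shedding and turnover of receptors were listed, and 2 were called higher and 1 lower, with a median of 0.02. RHBDF2, a partner of the sheddase ADAM17, rose from 11.0 ± 0.920 to 53.4 ± 11.3 CPM (SD, n = 4, log2 fold change 2.25, adjusted p = 2.93e-06, limma), and the kinase PRKD2 from 56.2 ± 8.15 to 115 ± 11.1 CPM (1.04, adjusted p = 0.000201, limma). TIMP3, an inhibitor of ADAM17, fell from 64.1 ± 4.18 to 11.9 ± 2.31 CPM (-2.43, adjusted p = 7.74e-07, limma). HGS (152 ± 5.78 and 147 ± 5.56 CPM) and VPS35 (81.1 ± 23.3 and 82.8 ± 20.4 CPM), which sort receptors in endosomes, were not called. Over the 6 lists, 19 of 79 listed genes were called higher and 12 lower, beside 9.52% and 17.5% of all genes. The 19 include IL12RB1, IL12RB2, IL15, LIF, SOCS3 and TNFRSF1B, 6 genes that the control libraries alone would not have listed and that had little room to be called lower.

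**Figure D5:**
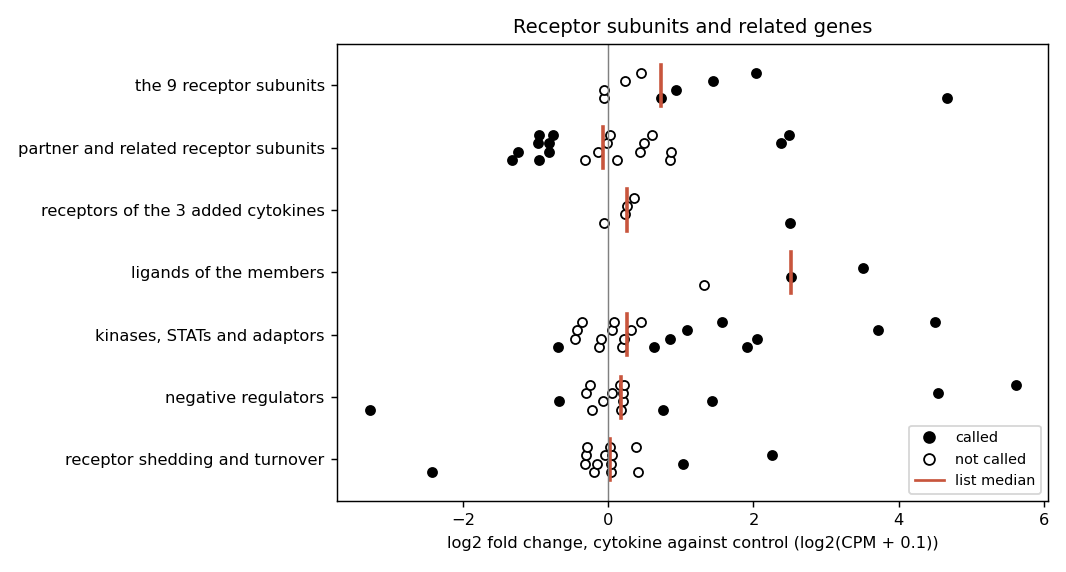
Log2 fold change (horizontal axis, cytokine against control on log2(CPM + 0.1)) of the 9 receptor subunits and of the listed genes of 6 related lists, with 1 circle per gene, filled where called, and the list median as a bar; values of genes with few control reads, such as TNFRSF1B and SOCS3, depend on the pseudocount. The medians run from -0.08 for partner and related subunits to 2.52 for the 3 listed ligands, and the subunits have no called gene below 0.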

How the data were processed

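RNA of 8 samples of the EndoC-βH5 line (4 per group) was sequenced by the authors, who, per their methods and processing notes, cleaned the reads with SOAPnuke, aligned them with TopHat 2.1.1 to GRCh38, counted them on Ensembl release 107 genes with htseq-count 0.9.1 and retained genes exceeding 0.5 CPM in 4 samples or more. The deposited values are CPM. Another 4 columns of values were not used. 100% of values were whole multiples of 1 read within 0.01 read, so reads were recovered.

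limma 3.58.1 in R 4.3.3 was run on log2(CPM + 0.1) with an intensity trend, without a block, and p-values were adjusted over 16525 genes; fold changes on this scale understate those of genes with few reads. edgeR 4.0.16 and DESeq2 1.42.0 on recovered reads, other scalings, pseudocounts, filters, thresholds and leave-one-out fits were alternatives; edgeR with TMM called 4067 genes. TPM used GENCODE 29 exon lengths, given for 97.8% of genes. Tables and figures used Python 3.11.15, pandas 2.3.3, numpy 2.4.6, scipy 1.17.1 and matplotlib 3.10.9. Statistics were tested on simulated data. The receptor subunits, the gene lists and the tests were chosen with earlier results of these data known. In each related list, the 2 largest rises and falls among called genes and the 2 genes of highest CPM among the others were named, and for each called subunit the 3 nearest profiles and for each subunit the nearest listed gene on each side. One gene that this rule names among the kinases, STATs and adaptors is counted there but not reported here by name.

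Pairs come from the column names. Deviations from the group mean correlated within pairs A to D by 0.574, 0.590, 0.797 and 0.741; A and B were not told apart (0.571 and 0.594 across). Within groups no 2 libraries were copies, but A and B were the closest (chi-square per gene of 5.90 in cytokine and 13.3 in control libraries). All other comparisons within a group gave 66.9 to 296. Whether A and B came from separate cultures was not tested. Counts over pairs and fits with the replicate block treat them as separate, so their p-values may be too small.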

Additional observations from a re-analysis of the deposited data

Results flagged for a closer look

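IL6R in control library C, at 15.2 CPM, was far from the other 3 control libraries, which lay between 8.82 and 9.28 CPM. Its gap to the nearest was 0.928 of the range of the group, above Dixon's critical value for 4 samples. Of the 18 groups of 4 libraries tested (9 subunits in 2 conditions) it was the only one past the limit, and chance passes about 1 group in 20. Cytokine library C was also the highest of its group, and without control C the log2 fold change of IL6R was 2.23 in place of 2.04.

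The change of IFNAR1 had opposite directions between the pairs numbered 21 and 22 in their column names, 0.05 on the log2 scale in A and B and -0.17 in C and D, with both pairs of a number on the same side. The difference of -0.23 had an unadjusted p of 0.256 and an adjusted p of 0.999 (limma interaction term), so it was not larger than the spread between libraries.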

How the results depend on the processing

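In the 27 alternatives run, 0 subunits were called lower, and IL15RA (log2 fold change 3.36 to 5.10), IL6R (1.82 to 2.25) and IL6ST (1.29 to 1.65) were called higher in all 27. IFNAR2 was called in 26 and missed under a test against a minimum change of 0.5 (limma treat, adjusted p = 0.0824), and IL22RA1 in 21, missed in that test (0.756) and without 5 of the single libraries. That test left 3 subunits called; with each library left out in turn the count was 4 to 5, and with the replicate block 5, or 6 together with TMM. The block changed no other call of a subunit.

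The direction of the 2 subunits with the smallest changes turned with the scaling, and neither was called in any alternative. IFNAR1 was at 0.0901 (TMM), 0.09998 (median of ratios), 0.147 (relative to GAPDH), 0.0809 (edgeR), 0.0924 (DESeq2), 0.0901 and 0.0892 (replicate block with TMM, in limma and in edgeR), 0.0504 (pairs numbered 21 alone) and 0.0550 (TPM), and from -0.18 to 0.0874 with a library left out (0.0874 without control C, 0.0108 without cytokine A). IL17RA was at 0.0889 (TMM), 0.0988 (median of ratios), 0.145 (relative to GAPDH), 0.0767 (edgeR), 0.0866 (DESeq2), 0.0889 and 0.0887 (replicate block with TMM, in limma and in edgeR) and 0.0539 (TPM), and from -0.13 to 0.0296 with a library left out (0.0296 without control B). CPM scaling puts the median of all genes at -0.17, and relative to it the 2 genes were at 0.10.

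The counts of related genes called higher or lower were not followed through these alternatives, so how far they depend on the processing is not known. The causes of the changes of the subunits were not tested. Precision is limited by 4 libraries per group and, for IL15RA in control cells, by 18 to 29 reads; intervals and limits from reads cover counting error only.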

Other observations

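For each called subunit the 3 genes with the most similar profile were found among the 16525 listed genes, by the root mean square difference of log2(CPM + 0.1) over the 8 libraries, each gene centred on its control mean. The measure describes likeness in these libraries and includes the size of the change. For IL6R they were CEBPB (0.101), JUND (0.126) and TMSB10 (0.151), the first 2 of which encode transcription factors. For IL6ST they were BAZ1A (0.0681), PCGF5 (0.111) and ZNF292 (0.129). IFNAR2 was nearest to INTU (0.118), RABGAP1L (0.125) and BANK1 (0.125), and IL22RA1 to RFX2 (0.114), PRSS57 (0.118) and the clock gene PER2 (0.141). For IL15RA they were EPSTI1 (0.256), MAFF (0.291) and IFIT1 (0.293), of which EPSTI1 and IFIT1 are interferon-induced genes.

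The nearest listed genes on the chromosome mostly did not move with the receptors. Of the 5 called subunits, only IL6R had a neighbour called higher, SHE, which lies 321 bases beyond it on the other strand (0.503 ± 0.150 to 1.05 ± 0.135 CPM, SD, n = 4, log2 fold change 0.96, adjusted p = 0.0226, limma). MYOM3, beside IL22RA1, fell (36.5 ± 1.31 to 11.9 ± 2.87 CPM, -1.64, adjusted p = 6.58e-05, limma), as did LINC01548, before IFNAR2 (0.929 ± 0.294 to 0.130 ± 0.0553 CPM, -2.15, adjusted p = 0.000585, limma), and TMEM121B, beside IL17RA (25.5 ± 3.88 to 13.6 ± 1.39 CPM, -0.90, adjusted p = 0.00107, limma). ATP8B2 before IL6R, SLC38A9 and MAP3K1 around IL6ST, FBH1 and RBM17 around IL15RA, DOCK11 and ZCCHC12 around IL13RA1 and CECR7 before IL17RA were not called. On chromosome 21 the listed genes stand in the order LINC01548, IFNAR2, IL10RB-DT, IL10RB, IFNAR1 and IFNGR2, and of these 6 IFNAR2 was the only one called higher.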
